A study of Mus musculus with 8 samples.

Results

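Guanylate-binding proteins (GBPs) are large GTPases that cells make in response to interferons. Interferon gamma signals through its receptor and the JAK kinases to raise their transcription, and IRF1 takes part in the same program. The proteins gather on bacteria and on the vacuoles that hold microbes, where they take part in membrane attack and in the activation of inflammasomes. Some members carry a lipid anchor that is added by prenylation.

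The family was followed here in lung neutrophils. The members considered were Gbp2, Gbp3, Gbp4, Gbp5, Gbp6, Gbp7, Gbp8, Gbp9, Gbp10 and Gbp11, 10 genes in all. A row of the expression table matched 7 of them by its RefSeq identifier, out of 24625 rows that cover 19836 distinct symbols. No row was matched to Gbp5, Gbp6 or Gbp11, and these are not analysed here. Each measured member had a single row, and none was lost to a filter on low values.

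Neutrophils came from the lungs of wild type mice, 6 to 12 weeks old per the labels, with a narrower range in the study's methods. The methods give the strain as C57BL/6J, from purchased female founders. Mice received PBS or a suspension of Streptococcus pneumoniae (SP) at 2.3 µl per g of body weight through the trachea into the left lung, and lungs were taken after 24 h. Cells were pulled from the digested tissue with magnetic beads against Ly6G, and RNA from 4 PBS and 4 SP samples was hybridised to 1 Affymetrix Mouse Gene 1.1 ST array each. The labels do not say how many mice stand behind an array, but the study describes each sample as taken from a mouse, so the p-values measure the spread between mice.

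On average, neutrophil markers were bright in every array, but epithelial markers were bright too, above all in PBS. The mean of 11 neutrophil markers, among them S100a8 and Cxcr2, was 12.28 to 12.67 on the log2 scale in PBS and 11.94 to 12.91 in SP, and Ly6g had no matched row. The study evaluated purity in samples from mice with pneumonia and gives no value for PBS samples. It states that Ly6G mRNA was high in every sample. Markers of other lung cells were also detected. The mean of 7 epithelial markers was 11.90 to 12.26 in PBS and 10.37 to 11.23 in SP. All 7 measured epithelial markers, 6 of 8 endothelial, 5 of 6 B cell and 5 of 8 alveolar macrophage markers were lower in SP at an adjusted p of 0.05. So were 3 of 11 neutrophil, 2 of 7 dendritic cell and 1 of 7 fibroblast markers, against 22.6% of all rows. Higher in SP were 4 of 9 markers of monocytes and interstitial macrophages, 2 of 7 T cell markers and 1 alveolar macrophage marker, against 21.5% of all rows. In bulk samples such as these, fewer cells of a type and less RNA per cell cannot be told apart.

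In the RefSeq annotation of GRCm38.p6, a mouse assembly, the family lies in 2 clusters. Chromosome 3 holds Gbp5, Gbp7, Gbp3, Gbp2b and Gbp2 in that order, and chromosome 5 holds Gbp8, Gbp9, Gbp4, Gbp10, Gbp6 and Gbp11. Gbp2b is a family gene outside the 10 members, and Gbp11 is annotated there as a transcribed pseudogene. Of the measured members, 3 are on chromosome 3 and 4 on chromosome 5.

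Upstream stretches of the measured chromosome 3 members, and of Gbp2b, are shown because they hold the letters that interferon-activated transcription factors are known to bind. Capitals mark matches to the core of the interferon-stimulated response element (ISRE, TTTCNNTTTC, a target of IRF factors) and to the gamma-activated site (GAS, TTCNNNGAA, named for its part in the interferon gamma response), searched on both strands. All are RefSeq promoter windows of GRCm38.p6 on the plus strand, each stretch with its coordinates.
Gbp2, chr3:142620574-142620643: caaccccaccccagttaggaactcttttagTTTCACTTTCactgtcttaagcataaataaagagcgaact
Gbp3, chr3:142559969-142560043: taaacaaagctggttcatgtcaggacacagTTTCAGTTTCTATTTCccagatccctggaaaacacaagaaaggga
Gbp7, chr3:142530200-142530322: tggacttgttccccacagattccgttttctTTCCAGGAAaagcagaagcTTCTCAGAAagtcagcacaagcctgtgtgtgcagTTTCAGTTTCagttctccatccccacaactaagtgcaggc
Gbp2b, chr3:142594680-142594749: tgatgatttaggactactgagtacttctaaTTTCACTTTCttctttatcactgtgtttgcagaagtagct
The Gbp2 and Gbp2b stretches hold the same letters, TTTCACTTTC, at different distances from the start site, −59 to −50 in Gbp2 and −137 to −128 in Gbp2b. Gbp3 holds 2 ISRE cores that overlap, the first at −45 to −36 and the other at −39 to −30. Gbp7 holds 1 ISRE core at −53 to −44 and 2 GAS motifs upstream of it.

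Promoter windows of 300 bases, from 250 before to 50 after the start site, were listed for 4 members (Gbp2, Gbp3, Gbp5 and Gbp7) and for Gbp2b. Each of these 5 genes held an ISRE core in at least 1 window, and 5 of their 6 windows did, against 3.44% of 32851 windows of all genes. Gbp5 and Gbp7 also held a GAS, which occurred in 8.3% of all windows, and both motifs together occurred in 0.454%. The kappaB motif, a target of NF-κB that is not marked above, was searched too. Gbp2 and Gbp5 held it, as did 8.46% of all windows. These matches describe letters and are not evidence of binding. No window was listed for Gbp4, Gbp6, Gbp8, Gbp9, Gbp10 or Gbp11.

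All 7 measured GBPs were higher in SP than in PBS. Each passed limma at an adjusted p of 0.05 (Benjamini-Hochberg over all rows), and each difference was at least 2-fold. Of all rows, 21.5% were called higher in SP at that adjusted p and 6.37% at 2-fold as well. The median difference of the 7 was 2.83 on the log2 scale, against 0.10 over all rows. In each of the 7, every SP array lay above every PBS array, which held for 27.2% of all rows.

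**Figure D1:**
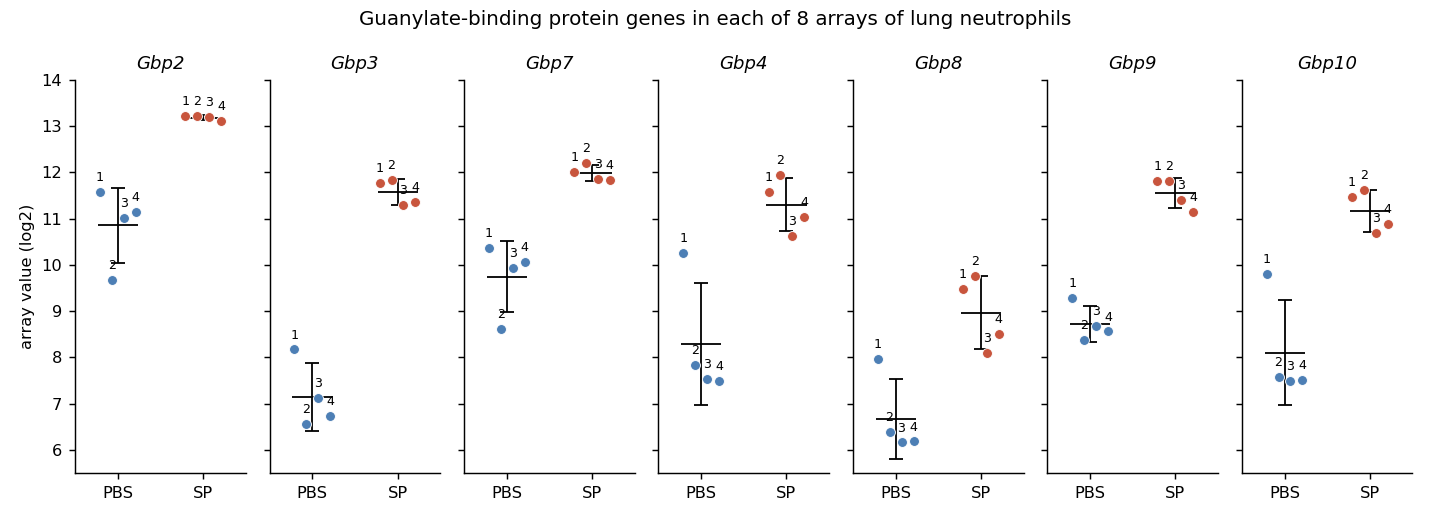
Log2 array values of the 7 measured GBP genes, with 1 point per array numbered by replicate, PBS in blue and SP in red; the long bar is the group mean and the whiskers are 1 SD over 4 arrays. Within each gene the SP points all lie above the PBS points, with the narrowest gap in Gbp8 (0.12), and PBS replicate 1 is the highest PBS point in every panel; heights are not comparable between genes.

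Gbp3 (row NM_001289492) showed the largest difference of the family. Its values were 8.17, 6.55, 7.12 and 6.74 in PBS replicates 1 to 4 and 11.77, 11.84, 11.29 and 11.36 in SP replicates 1 to 4. The lowest SP array was 3.12 above the highest PBS array. The difference was 4.42 (SE 0.34, 95% interval 3.66 to 5.19), which is 21.5-fold, with an adjusted p of 3.39e-05 by limma. That interval lay above the upper bounds for Gbp2, Gbp7, Gbp8 and Gbp9 and overlapped those of Gbp4 and Gbp10. The difference between these differences was not tested.

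Gbp2 (row NM_010260), often used as a readout of the interferon gamma response, read 11.58, 9.67, 11.02 and 11.14 in PBS and 13.21, 13.21, 13.20 and 13.11 in SP. The PBS arrays spanned 1.91 while the SP arrays spanned 0.10. The SP values lay toward the array maxima of 13.95 to 14.45, where signals may be compressed. Whether this narrowed the SP span or the difference was not tested. PBS replicate 2 was well below the others, and the groups were separated by 1.53. The mean rose from 10.85 ± 0.82 to 13.18 ± 0.05 (SD, n = 4 each), a difference of 2.33 (SE 0.36) or 5.03-fold, with an adjusted p of 0.00114 in the limma fit.

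Gbp7 (row NM_001083312), a neighbour of Gbp3 that has been tied to the assembly of the phagocyte NADPH oxidase, behaved much like Gbp2 from array to array. It read 10.36, 8.61, 9.93 and 10.06 in PBS and 12.01, 12.21, 11.86 and 11.84 in SP. PBS replicate 2 was again the lowest, and the groups did not overlap. The difference was 2.24 (SE 0.34), 4.73-fold, with an adjusted p of 0.00113 by limma. It was the smallest difference of the 7.

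On chromosome 5, Gbp9 (row NM_172777) had the tightest values. It read 9.28, 8.38, 8.67 and 8.56 in PBS and 11.82, 11.82, 11.41 and 11.15 in SP. The groups lay 1.87 apart at their closest. The mean rose from 8.72 ± 0.39 to 11.55 ± 0.33 (SD, n = 4 each), a difference of 2.83 (SE 0.23, 95% interval 2.31 to 3.34), 7.10-fold, with an adjusted p of 4.27e-05 by limma. Its SE was the smallest of the 7.

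Gbp4, Gbp10 and Gbp8 shared a different picture, in which PBS replicate 1 stood far above the other PBS arrays. Gbp4 (row NM_001256005) read 10.25, 7.84, 7.54 and 7.49 in PBS and 11.58, 11.95, 10.63 and 11.04 in SP. PBS replicate 1 was within 0.38 of the lowest SP array, while the other 3 PBS arrays lay close together. The difference was 3.02 (SE 0.62, 95% interval 1.61 to 4.43), 8.11-fold, with an adjusted p of 0.00494 by limma. Without PBS replicate 1 the fold was 12.8.

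Gbp10 (row NM_001039646) read 9.81, 7.58, 7.49 and 7.51 in PBS and 11.46, 11.62, 10.68 and 10.88 in SP. The 3 lower PBS arrays differed by less than 0.10, and PBS replicate 1 was 2.23 above the nearest of them. The difference was 3.06 (SE 0.52), 8.34-fold, with an adjusted p of 0.00206 by limma. It was 12.4-fold without PBS replicate 1 and 12.6-fold without PBS replicates 1 and 2.

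Gbp8 (row NM_029509) had the widest SP spread and the narrowest separation. Its values were 7.97, 6.39, 6.16 and 6.18 in PBS and 9.48, 9.75, 8.09 and 8.51 in SP. SP replicates 1 and 2 were clearly above SP replicates 3 and 4, and SP replicate 3 was 0.12 above PBS replicate 1. The difference was 2.28 (SE 0.50, 95% interval 1.13 to 3.43), 4.87-fold, with an adjusted p of 0.00704 by limma, the highest of the 7. The chromosome 5 genes are close relatives, and whether their probes also detect one another was not tested.

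**Figure D2:**
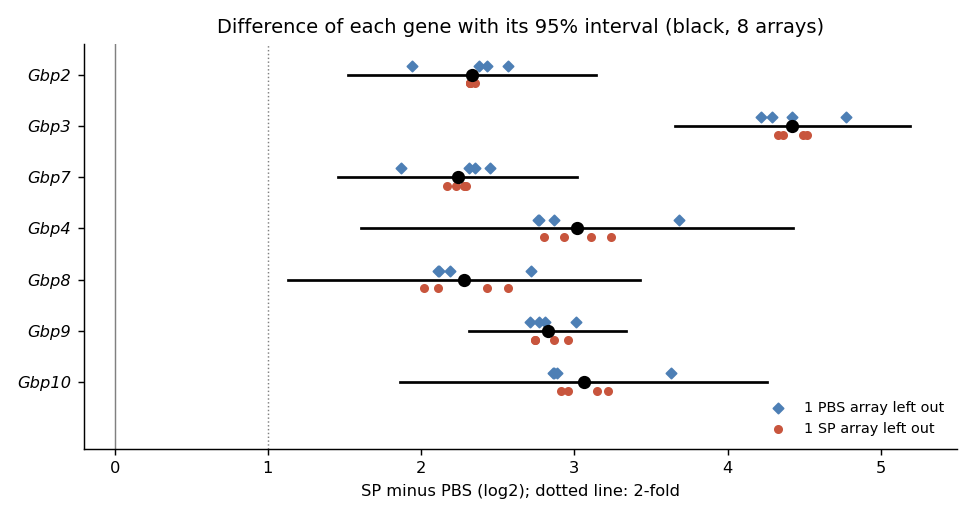
Difference between SP and PBS on the log2 scale for each GBP gene (black point, 8 arrays) with its 95% interval from limma (line), and the same difference with 1 PBS array (blue diamonds) or 1 SP array (red dots) left out. Every value and every interval lies right of the dotted 2-fold line; the rightmost diamond of Gbp4, at 3.68, is the value without PBS replicate 1.

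Gbp2b, described after its values were seen, was at the level of background in PBS. Its values were 4.62, 4.42, 4.60 and 4.54 in PBS and 5.22, 5.36, 5.07 and 4.90 in SP, while 3 Y-linked genes, taken as a measure of background, gave 4.33 to 4.90 over all arrays. The SP arrays were at or just above the top of that range. It passed the test (adjusted p of 0.00311 by limma), but with PBS at background no fold is given and none can be set against those of the members.

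The members varied together within each group. PBS replicate 1 was the highest PBS array in all 7 genes, 0.56 to 1.97 above the group mean. PBS replicate 2 was below the group mean in all 7 and was the lowest PBS array in Gbp2, Gbp3, Gbp7 and Gbp9. In SP, replicates 1 and 2 were both above replicates 3 and 4 in all 7, by 0.05 on average in Gbp2, 0.26 in Gbp7, 0.48 in Gbp3, 0.54 in Gbp9, 0.76 in Gbp10, 0.93 in Gbp4 and 1.32 in Gbp8. The order in Gbp2 is slight, with SP replicates 2 and 3 nearly level at 13.21 and 13.20. These orders describe the arrays, since replicates of a group carry no order of their own.

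With the group means removed, Gbp2 and Gbp7 had a Pearson r of 0.98 over the 8 arrays, and Gbp4 and Gbp10 one of 0.99. Gbp2 and Gbp8 were the least alike of the 21 pairs, at 0.38. Gbp3, although on chromosome 3, had r of 0.87 to 0.94 with the 4 chromosome 5 members and 0.70 and 0.71 with Gbp2 and Gbp7. The 9 pairs on the same chromosome had a median r of 0.88 and the 12 pairs on different chromosomes one of 0.58. These values are a description without a test, because they share 8 arrays and rest largely on PBS replicates 1 and 2.

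Ifng and some markers of other cells shared these orders, and others did not. Ifng read 6.08, 5.52, 5.78 and 5.34 in PBS and 7.39, 7.63, 6.27 and 6.26 in SP, so that PBS replicate 1 and SP replicates 1 and 2 were the highest of their groups, as in the GBPs. The mean of 7 T cell markers was 6.09, 5.52, 5.68 and 5.64 in PBS and 6.72, 6.97, 5.75 and 5.79 in SP. B cell markers were also highest in PBS replicate 1 (8.86, against 7.92 to 8.18 in the others) and in SP replicates 1 and 2 (7.24 and 7.43, against 6.24 and 6.51), although 5 of the 6 measured were lower in SP.

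The mean of 9 markers of monocytes and interstitial macrophages was highest in PBS replicate 1 (8.89) and lowest in PBS replicate 2 (8.02), but in SP it was highest in replicate 4 (9.60) and lowest in replicate 3 (8.31), which is not the order of the GBPs. Neutrophil markers were highest in SP replicate 3 (12.91) and lowest in SP replicate 2 (11.94), the reverse of Gbp4 and Gbp8. The part of other cells in the GBP differences was not tested.

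**Figure D3:**
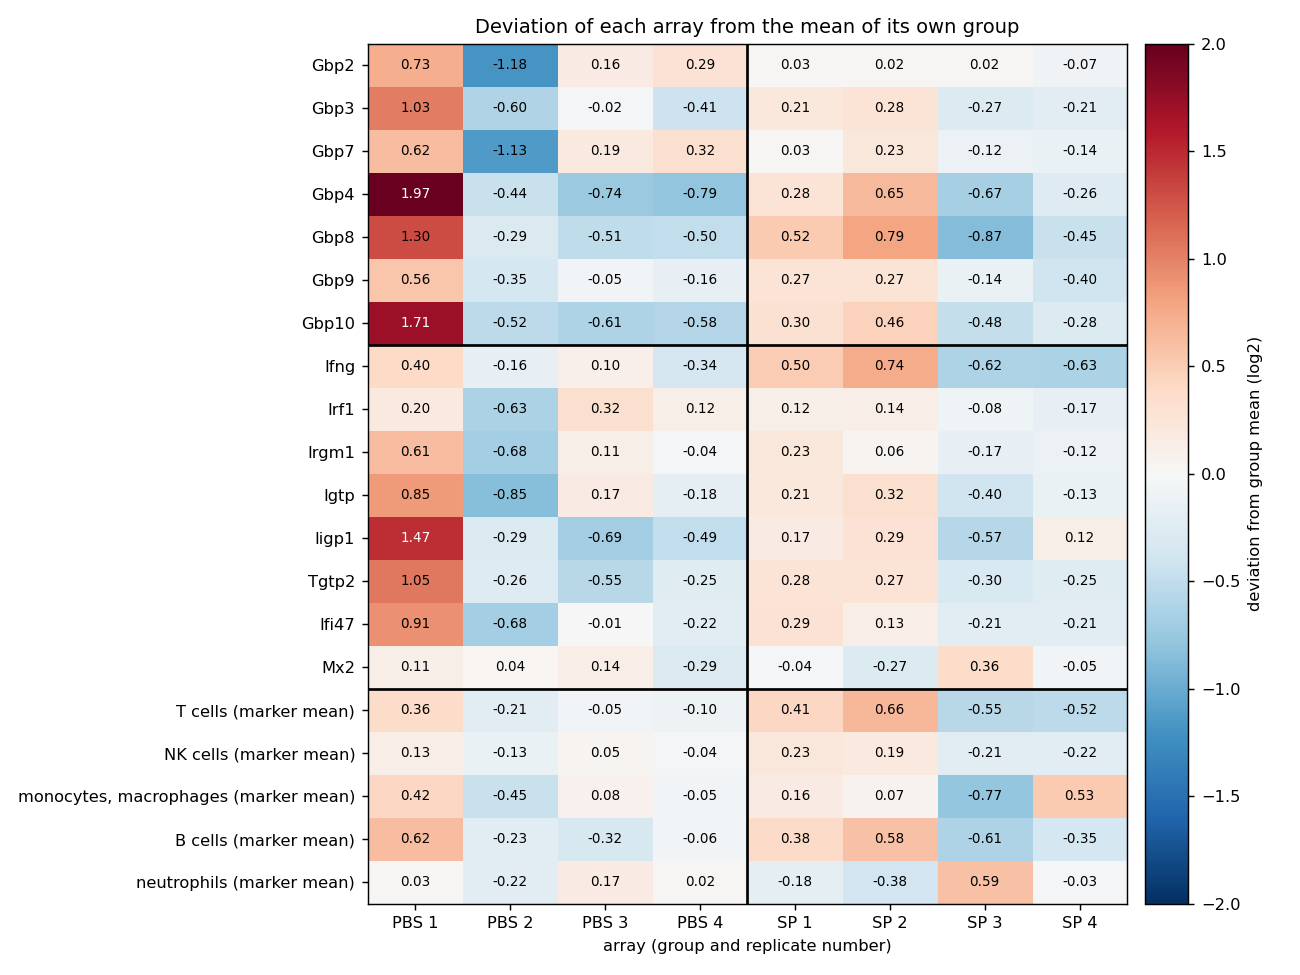
Deviation of each of the 8 arrays (columns) from the mean of its own group on the log2 scale, for the 7 GBP genes (top), interferon genes and other interferon-inducible GTPases (middle) and mean marker levels of other cell types and neutrophils (bottom). The PBS 1 column is positive for all 7 GBPs. Among the GBPs, the SP 1 and SP 2 columns lie above SP 3 and SP 4, except in Gbp2, where SP 2 and SP 3 both show 0.02. The marker means of T, NK and B cells run the same way, while the monocyte and neutrophil marker means and Mx2 do not in SP. Mx2 is near background in PBS.

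Other members of the interferon gamma pathway were then examined. Of its 9 genes, 7 were higher in SP, 1 was lower and 1 did not pass the test, with a median difference of 1.25. Of all rows, 21.5% were called higher and 22.6% lower at an adjusted p of 0.05, and 11.3% were lower at 2-fold as well. Ifng itself, the ligand, was 1.21 higher (SE 0.34, adjusted p of 0.022 by limma), a call close to the threshold. The adjusted p was 0.0534 in the methods' t-test, 0.0525 to 0.0606 by limma when any 1 of PBS replicates 2 and 4 and SP replicate 1 was dropped, and 0.0776 when PBS replicates 1 and 2 were dropped together, while the difference stayed between 1.04 and 1.33. The receptor chains went opposite ways, Ifngr1 at −0.57 (adjusted p of 0.00958 by limma) and Ifngr2 at 0.65 (adjusted p of 0.00272). The Ifngr1 call was lost when arrays were centred on their medians.

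Downstream of the receptor, Jak1, the brightest gene of the list, differed by 0.29 and did not pass the test (adjusted p of 0.187 by limma). It passed with centred arrays, at 0.57 (adjusted p of 0.0232 by limma). Jak2, the kinase bound to the second receptor chain, was 1.74 higher, with PBS arrays between 9.93 and 10.52 and SP arrays between 11.90 and 12.19. Irf1, a transcription factor induced by interferons, was 1.71 higher (adjusted p of 0.000291 by limma). Socs1, the feedback inhibitor of this pathway, was named after its values were seen and was 4.67 higher, from 5.51 to 6.44 in PBS to 10.57 to 11.17 in SP.

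The type I interferon list gave 7 of 9 genes higher in SP and none lower, with a median of 1.19. The shares over all rows were 21.5% higher and 22.6% lower. Usp18, a negative regulator of the type I receptor, was 2.50 higher and the receptor chain Ifnar2 was 0.60 higher. Centring the arrays, which moved the median difference of all rows by 0.28, put all 9 genes of this list past the test.

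Among the other interferon-inducible GTPases, a row was found for 6 of 15 named genes under the symbol used. All 6 were called higher in SP by at least 2-fold, as were 6.37% of all rows, with a median of 3.34. The other 9 were not matched, and a row under another symbol would have been missed. Irgm1, a regulator that guards the cell's own membranes, was 3.45 higher, and its relatives Igtp, Iigp1 and Tgtp2 were 2.82, 3.23 and 2.74 higher. Iigp1 shared the pattern of Gbp4 and Gbp10 in PBS, at 9.15 in replicate 1 and 6.99 to 7.38 in the others. Mx2, whose row is a non-coding RefSeq record, was named after its values were seen. It was near background in PBS, at 4.66 to 5.08, and read 9.30 to 9.93 in SP.

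Atlastins are membrane-shaping GTPases and the nearest relatives of the GBPs outside the family. Of the 3 genes, none was higher, 2 were lower in SP and 1 did not pass the test, with a median of −0.70. Over all rows, 21.5% were called higher and 22.6% lower. Atl3 was lower by more than 2-fold, at −1.07 (adjusted p of 0.00169 by limma), and Atl2 was at −0.29 (adjusted p of 0.0729). Atl2 passed with another quantile normalization, at −0.23 (adjusted p of 0.0491 by limma).

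Of 9 genes that act with GBPs in the activation of inflammasomes, 8 were higher in SP, all 8 by at least 2-fold. The other 1 did not pass the test, and the median was 1.65. Over all rows, 21.5% were called higher and 6.37% at 2-fold as well. Casp4, the mouse caspase that senses lipopolysaccharide in the cytosol, was 1.57 higher. Casp1 was 2.01 higher, the DNA sensor Aim2 2.13, the sensor Nlrp3 1.65 and the pore-forming Gsdmd 1.66. Aim2 was lowest in PBS replicate 2, at 7.09 against 8.33 to 8.53 in the other PBS arrays. Il1b, whose product caspase-1 matures, differed by 0.19 and did not pass the test (adjusted p of 0.242 by limma). It passed with centred arrays, at 0.47 (adjusted p of 0.0225 by limma), and its difference changed sign without PBS replicates 1 and 2.

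The genes that place and anchor GBPs gave mixed results, where 21.5% of all rows were called higher and 22.6% lower. Of 10 genes of the ubiquitin-like conjugation system that directs GBPs to vacuoles, 3 were higher, 3 lower and 4 did not pass the test, with a median of −0.18 that became 0.10 when arrays were centred. Gabarapl2 was at −0.44 (adjusted p of 0.00494 by limma), a call lost with centred arrays. Gabarap was at 0.26 (adjusted p of 0.0166 by limma), a call lost without PBS replicate 1 or SP replicate 1 and under 4 other alternatives. Map1lc3b differed by −0.07 without passing, but passed with another quantile normalization, at −0.31 (adjusted p of 0.029 by limma). Map1lc3a, named after its values were seen, was the 1 gene of the list that changed by 2-fold, at −1.26 (adjusted p of 1.95e-05 by limma). Of 8 prenylation genes, none was higher, 4 were lower and 4 did not pass, but with centred arrays 2 were higher and 2 lower, and without PBS replicates 1 and 2 only 1 was lower. Pggt1b, a subunit of the enzyme that adds the geranylgeranyl anchor, was at 0.37 (adjusted p of 0.121 by limma) and passed the test with centred arrays and with another quantile normalization. Zmpste24, a protease that trims prenylated proteins, was lower, at −0.44. That call was lost without any 1 of PBS replicates 1 and 2 and SP replicates 1, 2 and 3. Ggps1, which makes the lipid, was at −0.01 and changed sign under both other scalings. With centred arrays Ggps1 passed the test, at 0.27 (adjusted p of 0.0441 by limma).

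**Figure D4:**
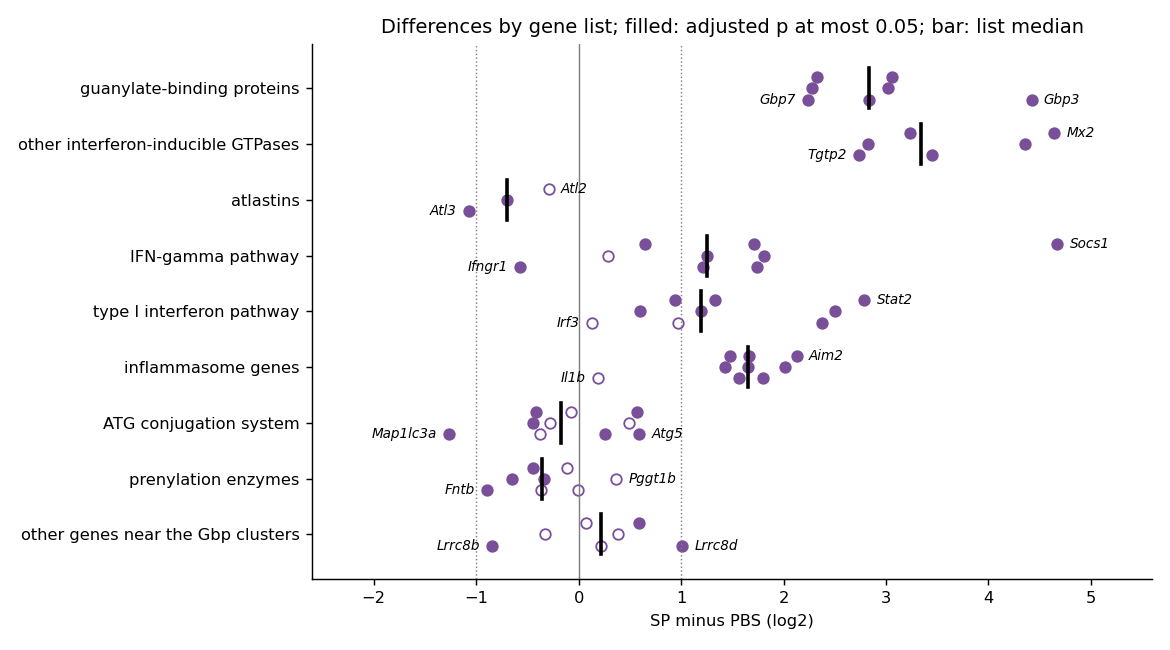
Difference between SP and PBS on the log2 scale (horizontal axis) for each measured gene of the GBP family and of 8 related lists; filled points passed the test, open points did not, the black bar is the list median and the lowest and highest genes are named. The 7 GBPs, from Gbp7 at 2.24 to Gbp3 at 4.42, and the 6 other interferon-inducible GTPases lie right of the 2-fold line, whereas the prenylation genes and atlastins lie around or below 0.

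Of 7 other genes of the cluster regions with a row, 2 were higher, 1 lower and 4 did not pass the test, with a median of 0.22. The shares over all rows were 21.5% higher and 22.6% lower. Gbp2b was 1 of the higher genes. Lrrc8c, a subunit of the volume-regulated anion channel, differed by 0.38 (adjusted p of 0.0991 by limma). It passed the test with centred arrays, without PBS replicate 2 and without PBS replicates 1 and 2 together. Its relative Lrrc8d was 1.01 higher.

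The genes whose profiles were most like the mean profile of the 7 GBPs over the 8 arrays were Cxcl9 (r of 0.995), Gm12250 (0.994), P2ry14 (0.994), Hvcn1 (0.993) and Tgtp2 (0.993). With the group means removed, their r was 0.971, 0.952, 0.961, 0.951 and 0.935. Cxcl9, a chemokine induced by interferon gamma, read 7.53, 4.81, 5.03 and 5.66 in PBS and 11.70, 12.04, 10.89 and 11.30 in SP. It showed the high PBS replicate 1 and the higher SP replicates 1 and 2 of the GBPs. The 8 arrays form 2 separate groups, so r over all of them mostly reflects the group difference, and no test was made.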

How the data were processed

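Messenger RNA was measured in 8 samples of lung neutrophils, 4 given PBS and 4 given SP. Grouping and replicate numbers were taken from the sample titles. The authors deposited log2 values, made by robust multi-array averaging (RMA): signals were corrected for background, GC content and sequence, quantile normalized, and summarised per gene by median polish. The submitters' processing notes name Affymetrix Expression Console, RMA and Partek. Values are relative within an array, so a change in total RNA per cell cannot be read from them, and bright signals may be compressed. Array medians were 6.06 to 6.20 in PBS and 5.78 to 5.91 in SP.

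Row identifiers were matched without versions to NCBI RefSeq genes of GRCm38.p6, which named 19915 of 24625 rows (80.9%). Differences are SP minus PBS from limma 3.58.1 in R 4.3.3 (lmFit and eBayes, two-sided, no covariate), adjusted over all rows, at thresholds of 0.05 and 2-fold. The test was first tested on simulated data. Promoter motifs and figures were made with Python 3.11.15 (pandas 2.3.3, matplotlib 3.10.9).

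The members and gene lists were chosen with earlier results of these data known. The values of 1 list gene enter the counts and are not given here. Genes named from a list were its 2 brightest and a set chosen for their roles; genes of likeness were the 5 highest by Pearson r with the mean of the centred profiles of the called members. Alternatives were a robust prior with trend, the methods' t-test (a one-way ANOVA), a replicate block, centred arrays, another quantile normalization, dim rows left out, 1 row per symbol and each array left out in turn. Leaving out PBS replicates 1 and 2 together was added after seeing the data.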

Additional observations from a re-analysis of the deposited data

Results flagged for a closer look

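Among the 14 groups of 4 arrays formed by the 7 measured GBPs in PBS and SP, 4 held an array far from the others, where chance gives about 1 group in 20. The measure is the gap between the extreme array and its nearest neighbour as a share of the range of the group. In PBS, replicate 1 was the highest array and stood apart in Gbp4 (share 0.875, gap 2.41), Gbp8 (0.875, gap 1.58) and Gbp10 (0.961, gap 2.23). In SP, replicate 4 was the lowest array of Gbp2 and stood apart by share (0.868), with a gap of 0.08. The 3 flags in PBS concern the same array and genes that vary together, so they are not independent of each other.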

How the results depend on the processing

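All 7 measured GBPs stayed called at 2-fold under each of the 16 alternatives, 8 of which left out 1 array, and no direction reversed. Their median difference ranged from 2.71 to 3.11, and the number of rows called at 2-fold from 3541 to 4657 around 4341. The highest adjusted p of each member came from the methods' t-test, at most 0.0263 (Gbp8). With the replicate block, 7 members and 4324 rows were called at 2-fold and the median was 2.83. The titles do not say whether replicate numbers pair the samples. The deviations of same-numbered arrays correlated at 0.02, 0.03, 0.35 and −0.27, and 2 of the 8 arrays correlated best with their own number. These values do not settle whether same-numbered samples shared a day or batch. For the 61 genes of the related lists, 912 of 972 comparisons kept their call, 23 gained and 37 lost it. Without PBS replicates 1 and 2, 6 of the 9 interferon gamma genes, 7 of the 9 type I interferon genes, 6 of the 6 other GTPases and 7 of the 9 inflammasome genes were higher. No other row per symbol could be tried, since no member has one. The number of arrays limits the precision, and Gbp5, Gbp6 and Gbp11 are not analysed here.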

Other observations

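The order of the GBPs within SP was not shared by every interferon gene. Ifnb1, the gene of interferon beta, read 4.39, 4.29, 4.49 and 4.28 in PBS and 4.70, 4.39, 6.88 and 5.37 in SP. The PBS arrays and SP replicates 1 and 2 were at or below background, taken as 4.33 to 4.90 from 3 Y-linked genes, and have no order. SP replicates 3 and 4 were above it, and replicate 3 was the lowest SP array of Gbp3, Gbp4, Gbp8 and Gbp10. Between the groups Ifnb1 did not pass limma (adjusted p of 0.122). Ifng ran the other way, at 7.39 and 7.63 in SP replicates 1 and 2 and 6.27 and 6.26 in SP replicates 3 and 4. Both genes were singled out after their values were seen.

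With the group means removed, the genes whose deviations were most like the mean of the 7 GBPs over the 8 arrays were Cxcl9 (r of 0.971), Il2rg (0.966), Ifi47 (0.965), Aurkb (0.964) and P2ry14 (0.961). Il2rg, the shared chain of several cytokine receptors, read 10.94, 10.30, 10.33 and 10.50 in PBS and 12.41, 12.43, 12.11 and 12.24 in SP. Aurkb, a mitotic kinase, went against the GBPs between groups, at 6.03, 5.38, 5.45 and 5.53 in PBS and 5.19, 5.21, 5.07 and 5.12 in SP, a difference of −0.45. The highest of so many rows is extreme by selection, and these values are a description of 8 arrays.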
